A study of Oryza sativa with 12 samples.

Results

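Leaf primordia of the rice line ospid C1, labelled as a knockout of the protein kinase OsPID, were compared with leaf primordia of WT, the cultivar Nipponbare. The 6 libraries titled ospid C1 or WT, 3 of each, were taken from a series of 12. The other 6 libraries, 3 of ospid C2 and 3 of ospin1c ospin1d, were used to set ospid C1, and the identifiers that changed in it, against those lines, and in an alternative fit of the comparison with WT. The line ospid C2 carries the same label of an OsPID knockout, and ospin1c ospin1d is labelled as a knockout of both OsPIN1c and OsPIN1d. The labels name no transgene, allele or way of making for any line, and they do not say whether the 3 libraries of a group came from separate plants or pools. All plants were kept at 28 °C during a day of 15 h and at 24 °C during a night of 9 h.

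PINOID kinases are known from Arabidopsis, where they phosphorylate PIN proteins, the carriers that export auxin from cells. The side of the cell on which PIN proteins sit sets the direction in which auxin moves. Local auxin maxima at the flank of the shoot apex mark where leaf primordia start. OsPIN1c and OsPIN1d are PIN carriers of rice.

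Expression was deposited as FPKM, which sets the fragments of a gene against its length and the size of the library, for 32552 identifiers. Of these, 28962 start with Os, the form used by the rice annotation project, and 3584 start with EPlOSAG. The deposited tables give no gene names, and of the 32552 identifiers 1 matched the reference table of 39387 rice genes. Identifiers are therefore given without names or functions, and neither OsPID nor marker genes of leaf tissue were looked up. The reads behind the values were recovered from the spacing of the FPKM values. They numbered 15546797 to 15641284 per library in ospid C1 and 15619347 to 16366255 in WT, so that 1 read on a gene of 1 kb was worth 0.0611 to 0.0643 FPKM. Of all identifiers, 20014 stood at 1 FPKM or more in at least 3 of the 6 libraries and were tested with limma on log2(FPKM + 1), two-sided, at a Benjamini-Hochberg adjusted p under 0.05.

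The libraries of each group resembled each other more than those of the other group. Over the 20014 identifiers the correlation of log2 values was 0.967 to 0.976 among ospid C1 libraries, 0.972 to 0.980 among WT libraries and 0.928 to 0.956 between the groups. On the first principal component, with 56.0% of the variance, ospid C1 replicates 1, 2 and 3 lay at 57.1, 29.3 and 30.8, against -40.3, -41.6 and -35.3 for the WT replicates. Replicate 1 of ospid C1 thus lay apart from the other ospid C1 libraries, on the side away from WT. The 100 most abundant identifiers of a library took 15.5%, 18.2% and 17.01% of the reads in ospid C1, against 18.5%, 19.4% and 18.2% in WT. The median spread between libraries of a group was 0.18 on the log2 scale in ospid C1 and 0.16 in WT (SD, n = 3 each, over 16814 identifiers at 1 FPKM or more in all 6 libraries).

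Against WT, ospid C1 differed in expression at 2232 identifiers, or 11.2% of those tested. As deposited, 1435 (7.17%) were higher in ospid C1 and 797 (3.98%) were lower. In libraries of a whole organ, fewer cells of a type and less RNA per cell cannot be told apart. The balance of rises and falls depended on the scale. The median change of all tested identifiers was 0.15 on the log2 scale as deposited and 0.00 after median-ratio scaling, whose factors were 1.02 to 1.15 in ospid C1 and 0.914 to 0.967 in WT. After that scaling 861 identifiers (4.30%) were higher in ospid C1 and 1252 (6.26%) were lower. The identifiers called in the same direction on both scales numbered 1658 (8.28%). They comprised the 861 higher ones and the 797 lower ones, and 0 were called in opposite directions. Without single libraries the 2232 calls became 1170, 1036 and 805 (WT replicates 1, 2 and 3). Without ospid C1 replicates 1, 2 and 3 they became 770, 2307 and 1150. All 1658 kept their direction in each of the 6 fits that left out a library, and 734 of them were called without ospid C1 replicate 1. They were chosen on these same libraries, so the kept direction was nearly fixed by the choice and carries no test. Groups that did not overlap were found at 8186 identifiers (40.9%).

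**Figure D1:**
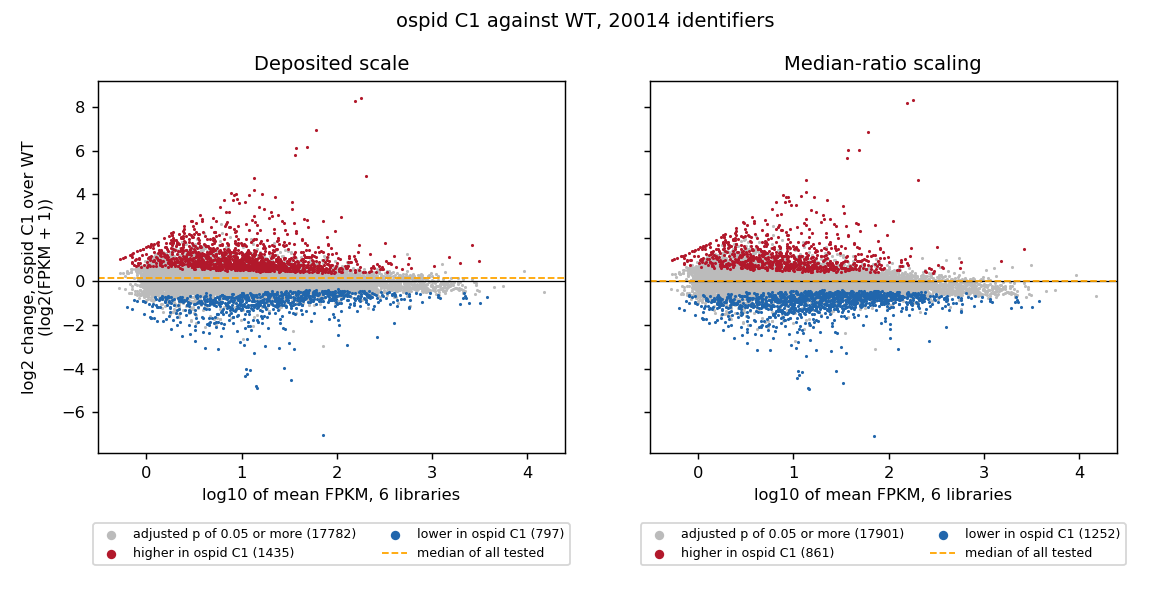
Log2 change of ospid C1 over WT (vertical axis, log2(FPKM + 1)) against the log10 of the mean FPKM over 6 libraries (horizontal axis) for 20014 identifiers, on the deposited scale and after median-ratio scaling. Each point is an identifier, coloured where called, and the dashed line is the median of all tested, which lies at 0.15 as deposited and at 0.00 after median-ratio scaling.

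Most changes were moderate in size. Among the 861 identifiers higher on both scales the median change was 1.099 as deposited and 0.95 after median-ratio scaling, with deposited quartiles of 0.86 and 1.57. Among the 797 lower ones the median change was -0.86 as deposited and -1.02 after median-ratio scaling, with deposited quartiles of -1.14 and -0.66. A change of at least 1 on the deposited log2 scale was reached by 510 of the higher and 285 of the lower identifiers. After median-ratio scaling the same size was reached by 404 and 418. A change of at least 3 was reached by 32 higher and 14 lower identifiers as deposited, and by 28 and 17 after median-ratio scaling. Rises thus outnumbered falls among the largest changes on both scales.

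Among abundant identifiers more fell than rose, on both scales. Of the 1400 identifiers with a mean of 100 FPKM or more, 69 (4.93%) rose and 126 (9.00%) fell as deposited, and 30 (2.14%) rose and 182 (13.0%) fell after median-ratio scaling. Their median change was -0.10 as deposited and -0.28 after median-ratio scaling. Of the 6657 identifiers between 1 and 5 FPKM, 398 (5.98%) rose and 144 (2.16%) fell as deposited, and 284 (4.27%) rose and 215 (3.23%) fell after median-ratio scaling. Their median change was 0.21 as deposited and 0.08 after median-ratio scaling. Falls exceeded rises among the most abundant class on both scales, and rises exceeded falls among the class of 1 to 5 FPKM on both. In the classes between, from 5 to 100 FPKM, the balance turned with the scale. As deposited 8.45% rose and 3.78% fell between 5 and 20 FPKM, and 7.42% rose and 5.42% fell between 20 and 100 FPKM. After median-ratio scaling 4.92% rose and 5.94% fell between 5 and 20 FPKM, and 3.84% rose and 9.11% fell between 20 and 100 FPKM. No test of the difference between classes was made, and the smaller share of reads in the 100 most abundant identifiers of ospid C1 replicates 1 and 3 moved with this pattern; its part in it was not tested.

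**Figure D2:**
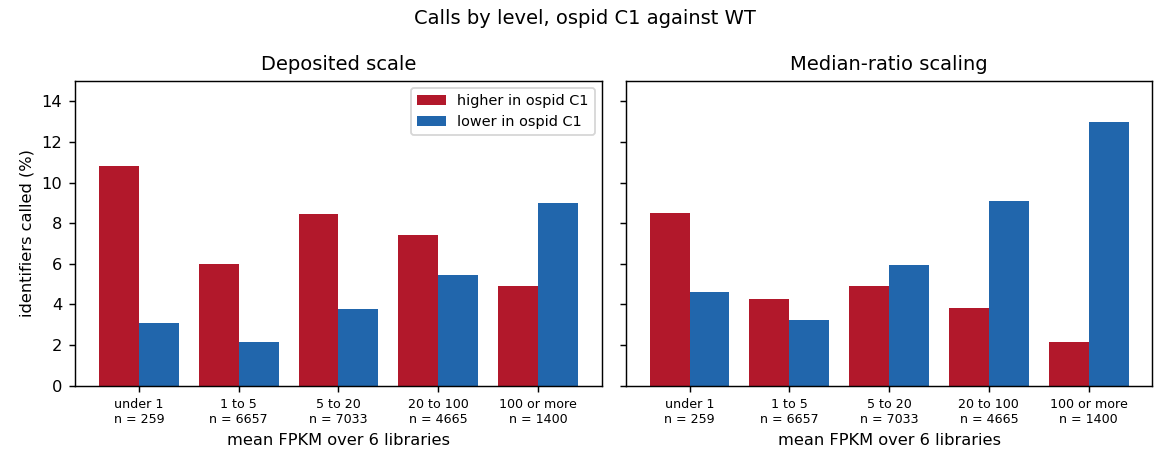
Share of tested identifiers called higher or lower in ospid C1 than in WT (vertical axis, %) by class of mean FPKM over 6 libraries (horizontal axis, with the number tested), on the deposited scale and after median-ratio scaling. Falls reach 9.00% and 13.0% in the class of 100 FPKM or more, the only class where they exceed rises on the deposited scale.

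The identifiers higher on both scales made up 4.18%, 3.76% and 3.55% of the reads in ospid C1 replicates 1, 2 and 3, against 1.67%, 1.505% and 1.64% in the WT replicates. Those lower on both scales made up 4.22%, 5.18% and 4.92% of the reads in ospid C1, against 8.41%, 8.14% and 8.003% in WT. These sums describe identifiers chosen for that difference and carry no test. Replicate 1 of ospid C1 had the highest of the 3 ospid C1 values at 546 of the 861 higher identifiers (63.4%), and the lowest at 447 of the 797 lower ones (56.1%). Its median distance from the WT mean was 1.26 for the higher identifiers, against 1.04 and 0.98 in replicates 2 and 3. For the lower identifiers it was -0.96, against -0.79 and -0.80. That all 3 libraries moved the same way by these medians follows from how the identifiers were chosen. Replicate 1 moved farthest. Without it, median-ratio scaling called 388 higher and 511 lower.

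Os01g0537250 was the identifier with the largest rise among those that met the rule for naming, which asked for an identifier starting with Os, a call on both scales, groups without overlap and a mean of at least 5 FPKM in the higher group. Its recovered length was 1191 bases. It stood at 319, 405 and 348 FPKM in ospid C1, from 5935, 7525 and 6449 reads, against 0, 0 and 0.154 FPKM in WT, from 0, 0 and 3 reads. The groups were fully separate, and WT was at or next to 0. The ratio of reads per library size was 6855 (exact 95% interval 2345 to 33243, counting error only). The log2 change was 8.41 (SE 0.14, limma adjusted p = 8.40e-08), and 8.31 after median-ratio scaling. It lies on chromosome 1, as the first digits of such an identifier give the chromosome.

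Os03g0115800, on chromosome 3 and 1431 bases long, was at a similar level in ospid C1. It stood at 306, 321 and 300.4 FPKM there, from 6848, 7170 and 6683 reads, and was listed at 0 in all 3 WT libraries. Set against 3 reads over the WT group, about the 95% upper limit for a count of 0, this was at least 7128-fold higher in ospid C1 (limma adjusted p = 3.11e-08). That limit covers counting error only, not the variation between libraries. The ospid C1 libraries lay close together, with a mean of 309 ± 10.8 FPKM (SD, n = 3).

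Among falls, Os01g0520180, also on chromosome 1 and 483 bases long, had the largest change under the same rule, for which EPlOSAG features were not eligible. It was listed at 0 in all 3 ospid C1 libraries, against 33.1, 20.03 and 34.3 FPKM in WT, from 250, 158 and 271 reads. Its level was at least 219-fold lower in ospid C1, with the same 95% limit of 3 reads over the group (limma adjusted p = 3.54e-05). A group listed at 0 adds no spread to the fit, so the adjusted p of this identifier and of Os03g0115800 may be too small.

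Os11g0678200, on chromosome 11 and 784 bases long, followed. It stood at 0, 0 and 0.164 FPKM in ospid C1, from 0, 0 and 2 reads, against 33.1, 27.3 and 25.1 FPKM in WT, from 405, 349 and 322 reads. WT exceeded ospid C1 in reads per library size by a ratio of 521 (exact 95% interval 144 to 4306). The log2 change was -4.80 (SE 0.16, limma adjusted p = 1.18e-05), and -4.88 after median-ratio scaling. In all, 615 higher and 684 lower identifiers starting with Os met the rule.

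**Figure D3:**
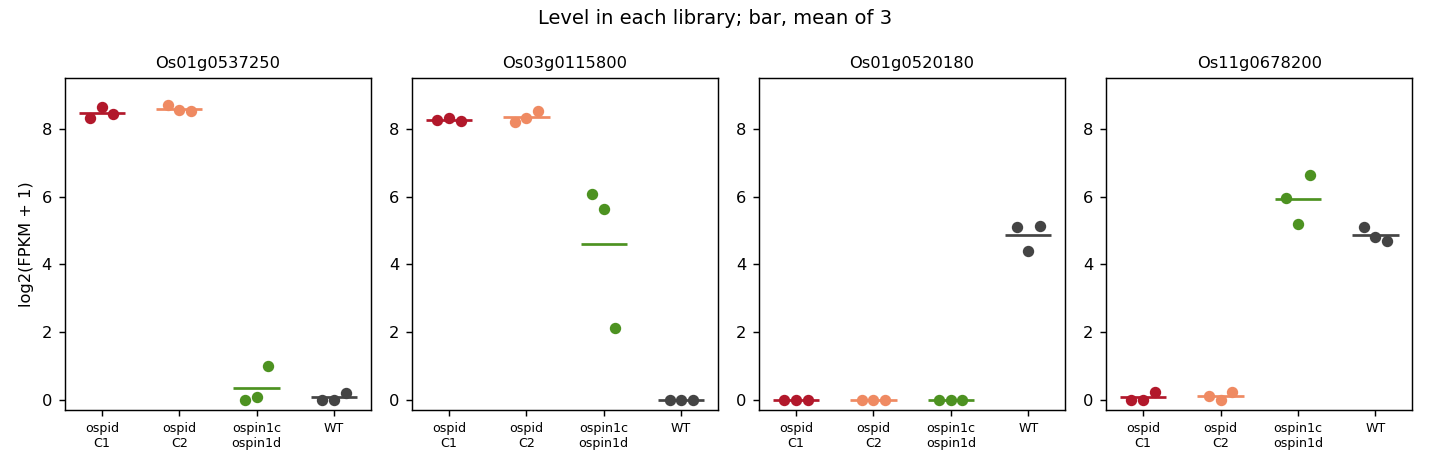
Level of the 4 identifiers in each of the 12 libraries (vertical axis, log2(FPKM + 1)) by line (horizontal axis); points are libraries and bars the mean of 3. Os01g0537250 and Os03g0115800 stand above 300 FPKM in most ospid libraries, Os01g0520180 is listed at 0 in all but WT, and Os11g0678200 is near 0 in both ospid lines alone.

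Presence in one group with absence in the other was rare. Of the tested identifiers, 31 were at 1 FPKM or more in all 3 ospid C1 libraries and listed at 0 in all 3 WT libraries. The reverse, 0 in ospid C1 and 1 FPKM or more in every WT library, was found at 14. The 31 held 12 identifiers starting with Os and 19 starting with EPlOSAG, and the 14 held 5 and 9. Many had few recovered reads, which are lower bounds. At least 13 of the 31 and 7 of the 14 averaged 10 reads or more per library in the group that expressed them. At most 5 and 1 had a single read in each library. Of the 12 starting with Os that were present in ospid C1, 4 lie on chromosome 11, 3 on chromosome 3, 2 on chromosome 12 and 1 each on chromosomes 1, 5 and 8. Of the 5 absent from it, 3 lie on chromosome 1 and 1 each on chromosomes 2 and 12. Of all 18872 tested identifiers starting with Os, chromosomes 1, 3, 11 and 12 held 2720, 2579, 962 and 1017. In ospid C2, 12 of the 31 were at 1 FPKM or more in all 3 libraries and 6 were listed at 0 in all 3. In ospin1c ospin1d the same counts were 2 and 6. Of the 14 absent from ospid C1, 9 were also listed at 0 in every ospid C2 library, and 4 in every ospin1c ospin1d library.

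Calls were spread over all 12 chromosomes. Among identifiers starting with Os, 4.19% rose and 4.11% fell on both scales. By chromosome the share that rose ran from 3.17% on chromosome 6 to 5.61% on chromosome 11, and the share that fell from 2.49% on chromosome 11 to 5.07% on chromosome 1. Chromosome 11 thus had the highest share of rises and the lowest share of falls, with 54 and 24 of 962 tested identifiers; the difference between chromosomes was not tested. Its tested identifiers had a median level of 6.80 FPKM, below the 8.88 to 11.4 FPKM of the other chromosomes. Most calls had no like call next to them, but like neighbours were more frequent than the share over all tested identifiers starting with Os. Along the chromosomes, 54 of 790 rises (6.84%) were followed by another rise, against 4.19% that rose among all. Another fall followed 57 of 775 falls (7.35%), against 4.11% that fell among all. These differences were not tested. The longest unbroken run in either direction was 4 identifiers. The labels do not say whether counting used the strand, and neighbours that overlap may share reads.

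The short EPlOSAG features, with a median recovered length of 64 bases against 1528 for identifiers starting with Os, held more rises than falls. Of 1142 tested, 71 (6.22%) rose and 21 (1.84%) fell on both scales. Their median change was 0.38 as deposited and 0.25 after median-ratio scaling, against 0.14 and -0.01 for identifiers starting with Os. Their standard errors were larger, with a median of 0.42 against 0.17. With these features left out, limma called 3118 of 18872 identifiers starting with Os, 2056 higher and 1062 lower as deposited. In the fit that included these features, 1340 of the same 18872 were called higher and 776 lower. The number of calls thus depended on whether the short features were in the fit.

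The line ospid C1 was then set directly against ospid C2, which carries the same label, with all 12 libraries in the fit. Of 21250 identifiers 2 (0.00941%) differed by limma, both higher in ospid C1, and 2223 (10.5%) had an unadjusted p under 0.05. The median difference was 0.09 as deposited and 0.00 after median-ratio scaling, which called 0 identifiers and left 1962 (9.23%) with an unadjusted p under 0.05. With no difference at any identifier, a share of about 0.05 would have such a p. The few calls thus do not show that the lines were alike. The 2 called identifiers are given because they are few, after their values were seen. Os06g0591551, 231 bases long, stood at 2.21, 3.05 and 2.78 FPKM in ospid C1 and 0.264, 0.532 and 0 FPKM in ospid C2 (adjusted p = 0.0467). WT was higher than both, at 5.54, 7.16 and 5.03 FPKM. The line ospin1c ospin1d stood near ospid C1, at 2.49, 3.35 and 3.19 FPKM, so that ospid C2 was the lowest of the lines. EPlOSAG00000053066 stood at 1.60, 1.60 and 1.61 FPKM in ospid C1, with 0 reads elsewhere (adjusted p = 0.0450). Its recovered count was 1 read in every ospid C1 library. That is a lower bound, since equal counts reduce to 1 under the smallest length. Leaving out ospid C2 replicate 2 gave 43 calls, leaving out WT replicate 2 gave 6, and leaving out replicate 1 of WT or of ospin1c ospin1d gave 1. Each of the other 8 libraries left out in turn gave 0.

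The 4 named identifiers starting with Os had like values in both ospid lines. Os01g0537250 stood at 418, 377 and 368 FPKM in ospid C2, and its log2 difference of ospid C1 minus ospid C2 was -0.12 (SE 0.22, limma adjusted p = 0.864). Os03g0115800 stood at 296, 324 and 368 FPKM in ospid C2, with a difference of -0.09 (SE 0.75, adjusted p = 0.980). This SE pools the spread of all 4 groups, among them ospin1c ospin1d at 66.2, 49.3 and 3.30 FPKM. It is thus not the spread of the ospid lines alone. Os01g0520180 was listed at 0 in all 3 ospid C2 libraries, and Os11g0678200 stood at 0.0777, 0 and 0.168 FPKM. These p-values do not show that the lines were equal.

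The line ospid C1 was also set against ospin1c ospin1d. In the same fit ospid C1 differed from it at 3921 of 21250 identifiers (18.5%), 2812 higher (13.2%) and 1109 lower (5.22%). The median difference was 0.14 as deposited and -0.01 after median-ratio scaling, which called 1665 higher and 1753 lower. Leaving out replicates 1, 2 and 3 of ospin1c ospin1d gave 2317, 1399 and 1969 calls. Without replicates 1, 2 and 3 of ospid C1 the calls were 1547, 4298 and 2267. Os01g0537250 stood at 0, 0.0542 and 0.979 FPKM in ospin1c ospin1d, and was higher in ospid C1 by 8.12 on the log2 scale (SE 0.22, limma adjusted p = 8.57e-10). Os03g0115800 stood at 66.2, 49.3 and 3.30 FPKM in ospin1c ospin1d, apart from both ospid C1 and WT, and was higher in ospid C1 by 3.67 (SE 0.75, adjusted p = 0.00999). Os11g0678200 stood at 62.0, 35.3 and 98.5 FPKM in ospin1c ospin1d, with a difference of ospid C1 minus ospin1c ospin1d of -5.86 (SE 0.28, adjusted p = 2.55e-07). Os01g0520180 was listed at 0 in both lines, so that here ospid C1 did not stand apart from ospin1c ospin1d.

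The identifiers called in ospid C1 against WT were followed in the 6 libraries that this comparison did not use. For the 20014 tested identifiers limma was fitted to ospid C2 and ospin1c ospin1d alone. Of the 797 identifiers lower in ospid C1 than in WT on both scales, 249 (31.2%) were lower in ospid C2 than in ospin1c ospin1d and 2 (0.251%) were higher. Over all tested identifiers 4.12% were lower and 2.62% higher. Of the 861 identifiers higher in ospid C1 than in WT, 99 (11.5%) were higher in ospid C2 than in ospin1c ospin1d and 3 (0.348%) were lower. The median log2 difference of ospid C2 minus ospin1c ospin1d was -0.51 for the 797, 0.42 for the 861 and 0.06 for all tested. The counts of 249 and 99 became 253 and 131 with median-ratio scaling. The counts of 249 and 99 became 80, 76 and 136, and 24, 25 and 55, without ospin1c ospin1d replicates 1, 2 and 3. Without ospid C2 replicates 1, 2 and 3 they became 320, 113 and 138, and 357, 27 and 37. For the fits that left out a library, the shares over all tested identifiers were not taken. Those counts therefore have no background beside them. The identifiers that fell in ospid C1 made up 6.32%, 5.42% and 4.46% of the reads in ospid C2, against 6.86%, 7.16% and 6.47% in ospin1c ospin1d, without overlap. Those that rose made up 2.41%, 3.47% and 4.32% of the reads in ospid C2, against 2.43%, 2.35% and 2.78% in ospin1c ospin1d, and here ospid C2 replicate 1 lay within the range of ospin1c ospin1d.

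**Figure D4:**
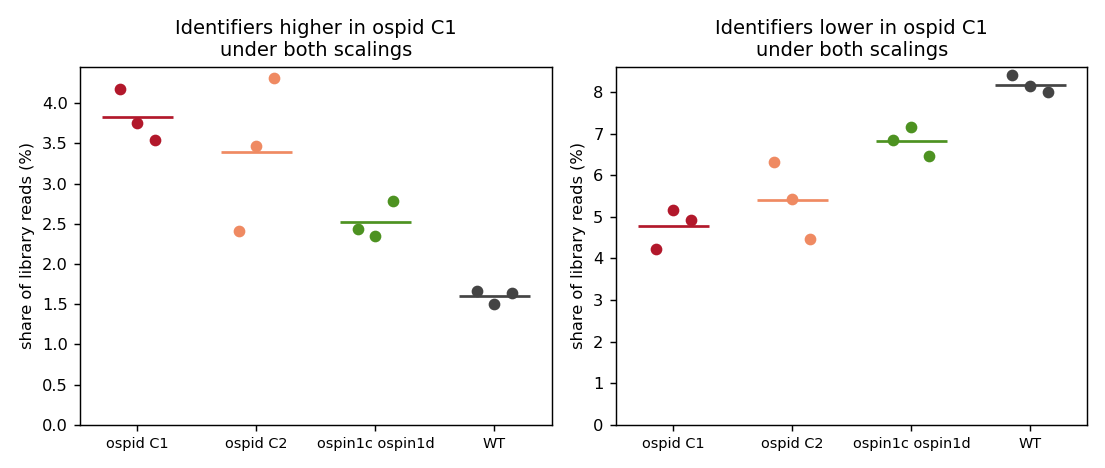
Share of each library's reads (vertical axis, %) held by the 861 identifiers higher and the 797 identifiers lower in ospid C1 than in WT on both scales, by line (horizontal axis); points are libraries and bars the mean of 3. The difference between ospid C1 and WT follows from how the identifiers were chosen, while ospid C2 and ospin1c ospin1d, which took no part in the choice, lie between them except for ospid C2 replicate 3 at 4.32% and 4.46%.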

How the data were processed

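The authors deposited 1 table of FPKM values per library, per the file headers. Total RNA, 2 µg per sample, went into an NEBNext Ultra library, per the labels' protocols. The submitters' processing notes name the build IRGSP-1.0 and the tools HTSeq 0.6.0, HISAT2 2.1.0 and Bowtie2 2.2.3, without role or order. Groups and replicate numbers came from the sample titles.

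Depth was found as the total at which the lengths implied by the FPKM steps were whole within 0.05 bases: this held for 100% of a subset of identifiers, against 9.97% at the median of other totals. With the smallest length that gave whole reads (within 0.01) in every library, the recovered reads summed to between 99.96% and 99.98% of the depths. Lengths and reads are thus lower bounds. Intervals on reads cover counting error only.

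The test was limma 3.58.1 in R 4.3.3 (mean-dependent prior, 6 libraries, a mean per group, no covariate). Fold changes on log2(FPKM + 1) understate the change of low identifiers. The direct comparisons with ospid C2 and ospin1c ospin1d used all 12 libraries and identifiers at 1 FPKM or more in at least 3 of them. In simulated data for ospid C1 against WT (20014 identifiers), 200 were changed, all above 5 FPKM in WT by their mean log2 level. There limma found 66.0% of the changes whose log2 size was 1 and 97.0% of those whose size was 2. It called 8 unchanged identifiers. The 200 changed are a smaller share than the 11.2% called in the data. The Benjamini-Hochberg cutoff depends on that share, so these rates may not carry over to the data. Recovery among identifiers at lower levels was not simulated. Since separate plants are not stated, p-values reflect how these samples varied, and that variation may be technical.

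Alternatives in scaling, filter, pseudocount, threshold, test and libraries are given in the closing section. Named identifiers are the 2 largest rises and the 2 largest falls among identifiers starting with Os, under the rule given with them. The comparison and its lists were chosen with earlier results of these data known. Lists of rice genes drawn up by name were not used, since no source here pairs the identifiers with names.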

Additional observations from a re-analysis of the deposited data

Results flagged for a closer look

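The difference of ospid C1 minus ospin1c ospin1d was tested directly with limma, and 3 of the 4 named identifiers starting with Os also differed there. It was 8.12 on the log2 scale for Os01g0537250, which was at or near 0 in ospin1c ospin1d and WT. It was 3.67 for Os03g0115800, which ospin1c ospin1d expressed at 3.30 to 66.2 FPKM, and -5.86 for Os11g0678200, at or near 0 in the ospid lines. Between the ospid lines, ospid C1 minus ospid C2 was 1.38 for EPlOSAG00000053066, from at least 1 read per ospid C1 library, and 1.56 for Os06g0591551.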

How the results depend on the processing

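For ospid C1 against WT (2232 calls, 1435 higher, 797 lower), counts moved by more than 1.5 times under these alternatives. Median-ratio scaling gave 861 higher and 1252 lower, no filter 1030 (655 and 375), and a log2 change of at least 1 gave 835 (550 and 285), by construction. All 12 libraries in the fit gave 3494, of which 2317 higher, and voom on the recovered reads, chosen after seeing the data, 2318 higher. A filter at a mean of 1 FPKM gave 2155 calls (1383 and 772) and a pseudocount of 0.1 gave 2096 (1341 and 755), within 1.5 times of the count above. Causes other than the stricter threshold were not tested. Leaving out each library gave 770 to 2307 calls, 473 to 1530 higher and 291 to 777 lower; with median-ratio scaling and without ospid C1 replicate 1 the counts were 899, 388 and 511. For ospid C1 against ospid C2 (2 by limma), median-ratio scaling gave 0, and leaving out a library 0 to 43, 0 to 42 higher and 0 to 1 lower. For ospid C1 against ospin1c ospin1d (3921), median-ratio scaling gave 1665 higher and 1753 lower, and leaving out a library 1399 to 4823, 891 to 3563 higher and 508 to 1260 lower. The difference of Os11g0678200 between ospid C1 and ospid C2, near 0 at -0.04, ran from -0.11 to 0.0191 with a library left out. The 4 named identifiers, chosen by their size of change in these same libraries, kept direction and call against WT in every setting run.

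Samples were not paired by their replicate numbers: deviations from the group means correlated at 0.02, 0.08 and -0.03 for numbers 1, 2 and 3. The fit with the replicate block called 1735 (1107 higher, 628 lower).

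At this depth 1 FPKM is 15.5 to 16.4 reads per kb of gene in the 6 libraries. Features with a true length near 64 bases would thus pass the filter on single reads. Recovered lengths are lower bounds, so how many EPlOSAG features did so is not known.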
